A study of Mus musculus with 9 samples.

Results

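AP-1 is a transcription factor built from pairs of basic leucine zipper proteins. RNA of 10 mouse genes that encode its subunits was followed in YAMC cells: Fos, Fosb, Fosl1 and Fosl2 of the FOS subfamily, Jun, Junb and Jund of the JUN subfamily, and the related subunits Atf3, Jdp2 and Maff. They were chosen by symbol, and all 10 were found among the 28059 Entrez gene IDs of the table. The study compared 2 clones in which Cdk8 had been knocked out by CRISPR (genotype Cdk8 -/-, called clone 1 and clone 19) with the parental YAMC line (genotype wildtype), with 3 libraries in each of the 3 groups. All cells were kept at 32 °C and taken for RNA while growing logarithmically. YAMC cells carry a temperature-sensitive large T antigen that keeps them dividing at this temperature; the name stands for young adult mouse colon, and the labels give the tissue as small intestine. A clone with intact Cdk8 was not among the groups, and each knockout clone is 1 clone, so effects of losing Cdk8 and of picking a clone cannot be told apart. CDK8 is a kinase of the Mediator kinase module, and Mediator is the complex through which transcription factors such as AP-1 signal to RNA polymerase II.

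FOS proteins do not pair with each other and bind DNA only with a JUN partner, whereas JUN proteins can also pair among themselves. The pairs bind the sequence TGACTCA, the TPA response element, and, when ATF proteins take part, the longer TGACGTCA, the cyclic AMP response element. Fos, Fosb and Junb are classical immediate early genes, switched on within minutes by growth factors through ERK and the factors SRF and ELK, while Fosl1 (FRA-1) and Fosl2 (FRA-2) are induced later and dominate in continuously growing cells. AP-1 activity has been linked to proliferation, invasion and matrix remodelling in intestinal cells.

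Promoter windows of RefSeq (GRCm38.p6, 250 bases before to 50 after an annotated start) were available for 9 of the 10 genes, in 13 windows, all but Fosl1. They were searched on both strands for TGACTCA, TGACGTCA, TGACATCA (a variant of the TPA element), the CArG box that SRF binds, and TATAAA. One of the first 4 motifs was found in 3 of the 13 windows and TATAAA in 2, and no match overlapped another. TGACATCA lay at -45 from the start of Jun and at -45 in window 3 of Maff, TGACGTCA at -29 in window 2 of Maff, and TATAAA at -33 in Fos and at the annotated start of Junb. Over all 32851 windows of this length, 5.2% held TGACTCA, 1.79% TGACGTCA, 3.62% TGACATCA, 1.63% a CArG box and 13.6% TATAAA. The share of all windows holding any of the first 4 motifs was not computed. Sequence farther than 250 bases before a start was not searched, so a motif not found here may lie outside the window. The windows of Junb and of Jdp2 (window 1) are printed because both genes fell in both clones, and those of Jun and Maff (window 2) because they hold an AP-1 type sequence; capitals mark the motifs found, and Jdp2 has none in this window. Junb lies at chr8:84978699-84978998 on the minus strand, Jdp2 at chr12:85598855-85599154 on the plus strand, Jun at chr4:95052173-95052472 on the minus strand and Maff at chr15:79347270-79347569 on the plus strand. These positions belong to GRCm38.p6 and not to NCBIM37, the build of the expression table.
Junb: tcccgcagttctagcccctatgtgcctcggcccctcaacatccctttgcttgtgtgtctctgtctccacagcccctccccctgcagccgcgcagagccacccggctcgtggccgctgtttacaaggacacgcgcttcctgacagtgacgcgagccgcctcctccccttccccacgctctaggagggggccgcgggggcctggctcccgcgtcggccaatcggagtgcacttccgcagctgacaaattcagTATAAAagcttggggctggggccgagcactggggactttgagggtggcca
Jdp2: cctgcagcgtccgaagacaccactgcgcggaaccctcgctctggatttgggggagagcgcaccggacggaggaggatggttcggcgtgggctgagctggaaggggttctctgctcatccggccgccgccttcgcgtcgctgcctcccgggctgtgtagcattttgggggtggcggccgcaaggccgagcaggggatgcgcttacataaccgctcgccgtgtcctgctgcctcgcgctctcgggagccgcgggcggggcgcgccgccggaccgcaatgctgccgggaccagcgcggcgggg
Jun: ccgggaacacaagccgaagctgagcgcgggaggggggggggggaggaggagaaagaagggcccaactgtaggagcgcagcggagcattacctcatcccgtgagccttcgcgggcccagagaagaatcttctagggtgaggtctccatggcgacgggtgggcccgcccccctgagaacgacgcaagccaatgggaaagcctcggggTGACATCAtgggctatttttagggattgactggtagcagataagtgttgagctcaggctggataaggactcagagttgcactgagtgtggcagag
Maff: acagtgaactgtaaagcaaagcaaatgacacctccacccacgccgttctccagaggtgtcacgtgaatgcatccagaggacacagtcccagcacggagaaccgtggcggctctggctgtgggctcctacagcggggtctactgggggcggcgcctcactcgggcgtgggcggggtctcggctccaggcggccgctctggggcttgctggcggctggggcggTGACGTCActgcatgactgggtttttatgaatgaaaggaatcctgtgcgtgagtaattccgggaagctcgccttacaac

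RNA levels are given as RPKM, reads scaled to gene length and library size, which allows levels of different genes to be compared. The depth estimated from the steps between low values was 23.2 to 44.2 megareads per library. Cells that match the intestinal label would carry its defining markers. Of the 12 intestinal epithelial markers looked at, 8 stayed under 1 RPKM in all 9 libraries, among them Epcam and Vil1, and Cdx2 and Alpi were listed at 0 in every library; Krt8, Krt18 and Krt19 were abundant and rose in both clones (log2 fold changes 0.65 to 0.78 in clone 1 and 0.57 to 0.85 in clone 19), and Cdh1, which passed the filter on low values only through clone 19, averaged 0.521 RPKM in clone 1 and 1.25 RPKM in clone 19, against 0.549 RPKM in parental cells. All 7 immune markers and 4 of 5 endothelial ones were under 1 RPKM throughout, and Kdr, the one tested, fell by 0.78 in clone 1 and by 0.86 in clone 19. The 11 mesothelial markers, which share the 3 keratins, summed to 2900 to 3000 RPKM in clone 1 and 2950 to 2960 RPKM in clone 19, against 1680 to 1690 RPKM in parental cells, and 10 of them were called higher in each clone. Of all tested genes, 39.8% were called higher and 32.6% lower in clone 1, and 36.7% and 32.3% in clone 19. Msln (mesothelin) was called lower in both, with log2 fold changes of -0.43 in clone 1 and -0.14 in clone 19 (adjusted p = 1.9e-07 and 0.00127, limma). Ranked by the smaller of their changes in the 2 clones, the first 4 were Lrrn4 (1.60 in clone 1 and 1.38 in clone 19), Gpm6a (1.14 in clone 1 and 1.24 in clone 19), Wt1 (0.97 in clone 1 and 0.98 in clone 19) and Upk3b (0.91 in clone 1 and 0.88 in clone 19). The 8 mesenchymal markers summed to 1650 to 1690, 1410 to 1480 and 1820 to 1890 RPKM in clone 1, clone 19 and parental cells. Of these 8, clone 1 had 3 higher and 5 lower, and clone 19 had 2 higher and 6 lower. By the same ranking the first 4 were Col1a1, Pdgfra and Pdgfrb, which fell in both clones, and Dcn, which rose in both. The part of either set in the AP-1 results was not tested. Cdk8 itself had 10.3, 11.1 and 11.6 RPKM in the clone 1 libraries and, in the clone 19 libraries, 10.5, 10.3 and 10.3 RPKM, against 17.5, 17.7 and 17.5 RPKM in parental cells, so its RNA was lower but present in the clones (on the log2 scale -0.66 in clone 1 and -0.74 in clone 19). The position of the edit is not given in the sources used here, so this gene-level value does not check the deletion. Of the 6 tested genes of the 7 in the Mediator kinase module, clone 1 had 1 higher and 2 lower and clone 19 had 2 higher and 3 lower. Med13l rose by 0.24 in clone 1 and by 0.20 in clone 19, Ccnc (cyclin C) fell by 0.29 in clone 1 and by 0.14 in clone 19, and Med13 differed by -0.14 in clone 1 (not called) and -0.21 in clone 19. Cdk19, the other kinase gene of the module, averaged 8.38 RPKM in clone 1, 9.33 RPKM in clone 19 and 8.20 RPKM in parental cells. It was not called in clone 1 and was called higher in clone 19 (log2 fold change 0.18, adjusted p = 0.00271, limma).

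**Figure D1:**
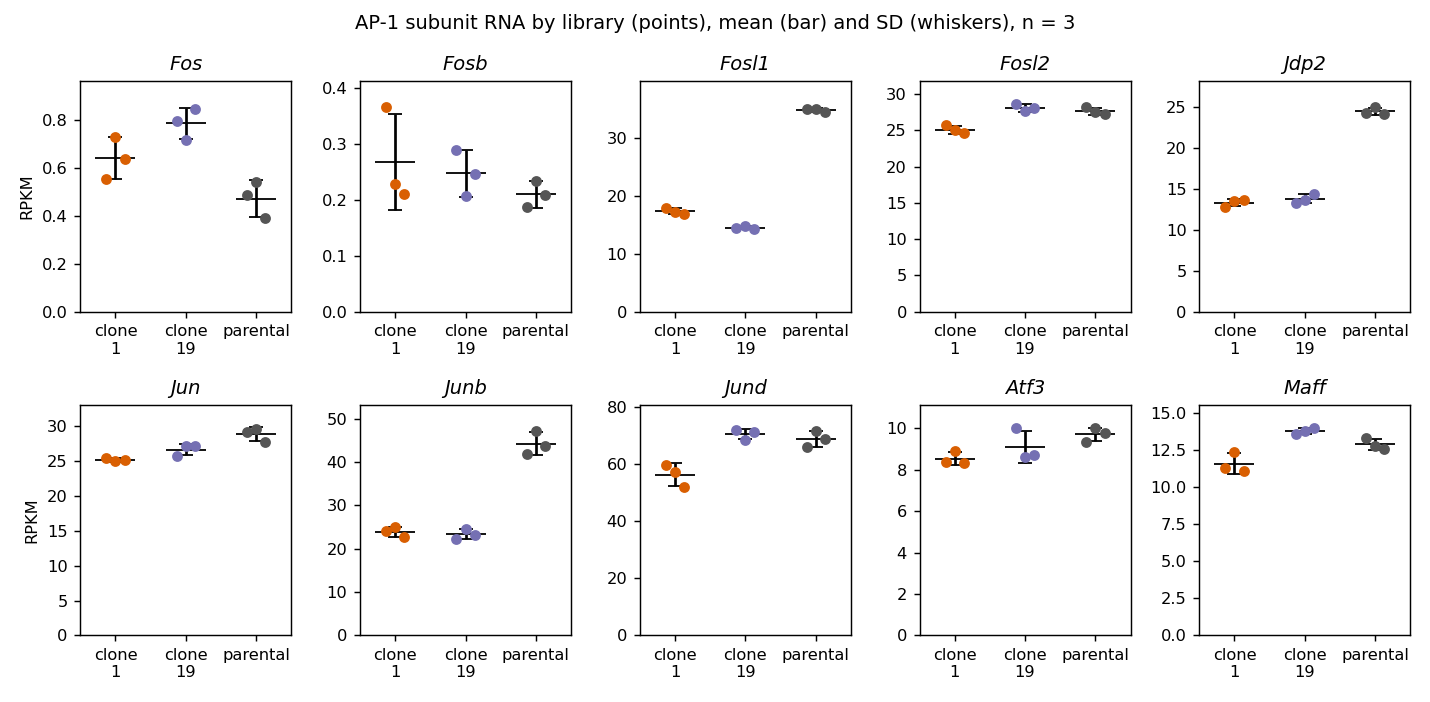
RNA level in RPKM (vertical axes, each from 0) of the 10 AP-1 subunits in clone 1, clone 19 and parental cells, with 1 point per library, a bar for the mean and whiskers for the SD (n = 3). Fosl1, Jdp2 and Junb are separated from parental cells by a wide gap in both clones, and Fosl2, Jun, Jund, Atf3 and Maff by a smaller one in clone 1. Jun (lower) and Maff (higher) are also separated in clone 19, and Fos (higher) in both clones.

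Fosl1, Junb and Jdp2 fell in both clones, with log2 fold changes from -1.23 to -0.80, while those of the other tested subunits lay between -0.29 and 0.09. In clone 1 all 8 tested subunits were called lower; of the 12568 tested genes 72.4% were called, 32.6% lower and 39.8% higher. In clone 19 Fosl1, Jun, Junb and Jdp2 were called lower and none of the 8 higher; of all tested genes 69% were called, 32.3% lower and 36.7% higher. All libraries of clone 1 lay below all parental ones for the 8 subunits, as for 33.7% of tested genes (41.4% lay above, 75.1% in either direction). In clone 19 the libraries lay below for Fosl1, Jun, Junb and Jdp2 and above for Maff, beside 34.8% of tested genes below, 38.7% above and 73.5% in either direction. A call means a Benjamini-Hochberg adjusted p under 0.05 in limma, and log2 fold changes compare log2(RPKM + 0.5), which understates changes of genes with low levels. The median log2 fold change of the 8 subunits was -0.24 in clone 1 and -0.10 in clone 19, beside 0.03 and 0.02 over all tested genes. These 8 had more than 8 RPKM in every library, so none of them passed the filter through 1 group alone; Fos and Fosb were under 1 RPKM throughout and were not tested in this fit. Both comparisons use the same 3 parental libraries. In bulk RNA, fewer cells with a transcript and less transcript per cell cannot be told apart.

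Fosl1 (Entrez 14283) encodes FRA-1, a FOS protein without a strong activation domain of its own that accumulates under sustained ERK signalling. It had 17.9, 17.2 and 16.9 RPKM in the clone 1 libraries and, in the clone 19 libraries, 14.5, 14.8 and 14.2 RPKM, against 35.0, 35.0 and 34.4 RPKM in parental cells. The 3 groups did not overlap, and clone 19 was lowest. The log2 fold change was -0.98 ± 0.03 in clone 1 (SE, n = 3 against 3, adjusted p = 2.8e-10, limma) and -1.23 ± 0.03 in clone 19 (adjusted p = 7.1e-11, limma). Of all tested genes, 2.79% had a more negative change than Fosl1 in clone 1, and 1.44% did in clone 19. Fosl1 shares part of its span with Ccdc85b in the GRCm38 annotation. The sources used here do not say whether reads were counted by strand, so reads of the 2 genes in the shared part cannot be told apart. Ccdc85b was lower as well, with 18.2 to 19.5 RPKM in clone 1 and 16.3 to 16.8 in clone 19, against 23.9 to 24.8 in parental cells, and log2 fold changes of -0.37 and -0.54.

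Fosl2 (Entrez 14284) encodes FRA-2, the other late FOS protein. It had 25.7, 25.0 and 24.6 RPKM in the clone 1 libraries and, in the clone 19 libraries, 28.7, 27.6 and 28.1 RPKM, against 28.2, 27.5 and 27.2 RPKM in parental cells. Clone 1 lay below both other groups, whose values overlapped. Fosl2 fell by 0.14 on the log2 scale in clone 1 (SE 0.03, adjusted p = 7.1e-04, limma). In clone 19 the difference was 0.02, with a 95% interval from -0.04 to 0.08 (adjusted p = 0.446, limma).

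Fos (Entrez 14281), the founding immediate early gene of the family, was scarce. It had 0.555, 0.731 and 0.638 RPKM in the clone 1 libraries and, in the clone 19 libraries, 0.797, 0.716 and 0.847 RPKM, against 0.486, 0.541 and 0.390 RPKM in parental cells, which corresponds to an estimated 27 to 50 reads per library. All 6 clone libraries lay above the parental ones. The fit without a filter on low values covered 21679 genes, of which 5373 were called higher in clone 1 and 5092 in clone 19. In that fit Fos was called higher in clone 1, close to the threshold (log2 fold change 0.23 ± 0.08, SE, adjusted p = 0.0468, limma), and in clone 19 (0.41 ± 0.08, adjusted p = 0.00334, limma). Fosb (Entrez 14282), its close relative, had 0.365, 0.227 and 0.210 RPKM in the clone 1 libraries and, in the clone 19 libraries, 0.289, 0.206 and 0.246 RPKM, against 0.186, 0.234 and 0.208 RPKM in parental cells. The 3 groups overlapped, and Fosb was not called in the unfiltered fit (0.11 in clone 1 and 0.07 in clone 19, adjusted p = 0.308 and 0.505, limma).

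Junb (Entrez 16477) encodes a JUN protein that is an early response gene and can restrain the activity of Jun. It had 24.1, 25.0 and 22.7 RPKM in the clone 1 libraries and, in the clone 19 libraries, 22.3, 24.6 and 23.1 RPKM, against 41.9, 47.1 and 43.7 RPKM in parental cells. The clones overlapped each other and lay far below all parental libraries. Junb fell by 0.87 on the log2 scale in clone 1 (SE 0.05, adjusted p = 4.5e-08, limma) and by 0.91 in clone 19 (SE 0.05, adjusted p = 3.6e-08, limma). The genes around it were lower too: the 6 tested genes next to it in the GRCm38 gene order, Gm38426, Rnaseh2a, Prdx2, Hook2, Get3 and Trir, were all called lower in both clones. Their log2 fold changes ran from -1.12 to -0.40 in clone 1 and from -0.88 to -0.34 in clone 19, and the median over the 50 nearest tested genes was -0.48 and -0.42. With that local median subtracted in each library, the change of Junb was -0.39 in clone 1 and -0.48 in clone 19 (adjusted p = 2.7e-05 and 5.4e-06, limma).

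Jund (Entrez 16478) encodes the JUN protein that is least dependent on stimulation, and it was the most abundant subunit in all 3 groups. It had 59.9, 57.4 and 51.9 RPKM in the clone 1 libraries and, in the clone 19 libraries, 72.0, 68.6 and 71.5 RPKM, against 66.1, 71.7 and 68.8 RPKM in parental cells. Clone 1 lay below all other libraries, and clone 19 overlapped parental cells. Jund fell by 0.29 on the log2 scale in clone 1 (SE 0.05, adjusted p = 2.3e-04, limma), and in clone 19 it differed by 0.04 with a 95% interval from -0.07 to 0.14 (adjusted p = 0.494, limma). Jun (Entrez 16476), which encodes c-JUN, the main target of the JNK kinases, moved little. It had 25.5, 25.0 and 25.1 RPKM in the clone 1 libraries and, in the clone 19 libraries, 25.8, 27.1 and 27.1 RPKM, against 29.2, 29.6 and 27.7 RPKM in parental cells. All clone libraries lay below the parental ones, and Jun fell by 0.19 in clone 1 (SE 0.03, adjusted p = 1.9e-04, limma) and by 0.11 in clone 19 (SE 0.03, adjusted p = 0.00757, limma). The call in clone 19 ended with neighbouring genes subtracted (-0.08, adjusted p = 0.0646, limma).

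Jdp2 (Entrez 81703) encodes a small JUN partner that represses transcription from AP-1 sites and recruits histone deacetylase. It had 12.8, 13.5 and 13.7 RPKM in the clone 1 libraries and, in the clone 19 libraries, 13.3, 13.7 and 14.4 RPKM, against 24.3, 25.0 and 24.2 RPKM in parental cells. As with Junb, the clones overlapped each other and stood well apart from parental cells. Jdp2 fell by 0.85 on the log2 scale in clone 1 (SE 0.04, adjusted p = 3.9e-09, limma) and by 0.80 in clone 19 (SE 0.04, adjusted p = 7.0e-09, limma). Of the 6 tested genes next to it, 5 were called higher and none lower in each clone, and with the median of its 50 neighbours subtracted the change was -0.89 and -0.85. Among pairs of tested subunits, profiles relative to parental cells were closest for Fosl2 and Maff (root mean square difference 0.06 log2 units over 9 libraries). Next came Atf3 and Jun (0.087), Jdp2 and Junb (0.09) and Fosl2 and Jun (0.091). Subunits that change little are also close by this measure.

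Atf3 (Entrez 11910) encodes a stress-induced subunit that mostly represses. It had 8.36, 8.92 and 8.33 RPKM in the clone 1 libraries and, in the clone 19 libraries, 10, 8.59 and 8.71 RPKM, against 9.35, 10 and 9.76 RPKM in parental cells. Clone 1 lay below parental cells, and 1 library of clone 19 lay among them. Atf3 fell by 0.18 on the log2 scale in clone 1 (SE 0.06, adjusted p = 0.0163, limma). Leaving out clone 1 replicate 3 or parental replicate 2 ended this call (log2 fold changes of -0.16 and -0.15, adjusted p = 0.0532 and 0.0585, limma). With neighbouring genes subtracted the change was -0.35, larger by over 1.5 times. The clone 19 difference of -0.09 missed the threshold (adjusted p = 0.182, limma), and leaving out clone 19 replicate 1 turned it into a call (-0.16, adjusted p = 0.0118, limma). Maff (Entrez 17133), a small MAF protein that lacks an activation domain, had 11.3, 12.4 and 11.1 RPKM in the clone 1 libraries and, in the clone 19 libraries, 13.6, 13.8 and 14.0 RPKM, against 13.3, 12.8 and 12.6 RPKM in parental cells. The clones thus lay on opposite sides of parental cells with no overlap. Maff fell by 0.15 in clone 1 (SE 0.04, adjusted p = 0.00691, limma). The clone 19 difference of 0.09 missed the threshold (adjusted p = 0.0739, limma); it passed when clone 1 replicate 2 was left out (adjusted p = 0.0268, limma) or when clone 1 was not in the fit (adjusted p = 0.0314, limma).

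**Figure D2:**
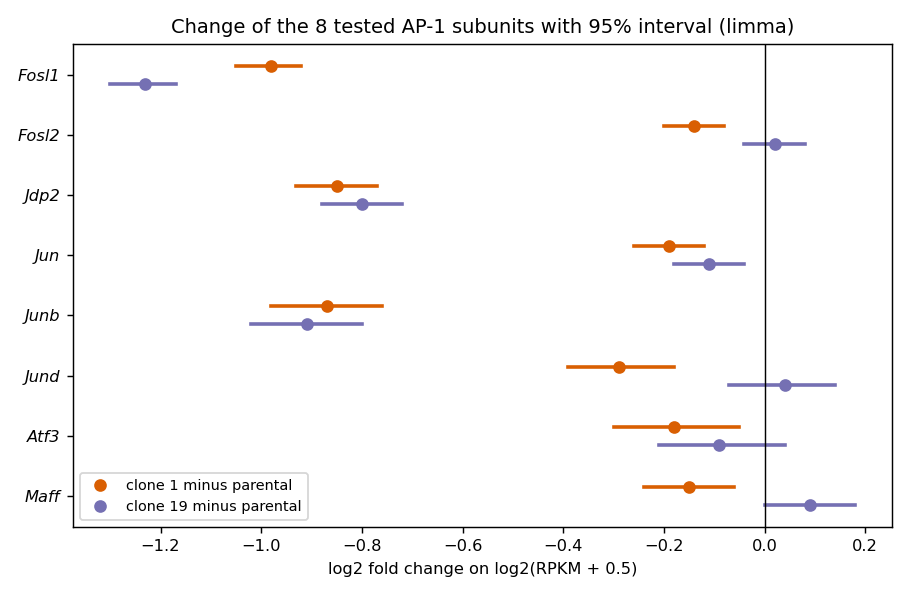
Log2 fold change on the log2(RPKM + 0.5) scale (horizontal axis) of the 8 tested subunits in clone 1 and clone 19 against parental cells, with 95% intervals from limma. Fosl1, Jdp2 and Junb lie between -1.23 and -0.80, and the other 5 between -0.29 and 0.09; all intervals of clone 1 lie below 0.

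The clones differed from each other in 4 of the 8 tested subunits, with 43% of all tested genes called in this comparison, 24.5% lower and 18.5% higher in clone 19. All clone 19 libraries lay below those of clone 1 for Fosl1 and above for Fosl2, Jun, Jund and Maff; 51.5% of tested genes did not overlap, 29.2% below and 22.3% above. Fosl1 was lower in clone 19 than in clone 1 (log2 fold change -0.25 ± 0.03, SE, adjusted p = 7.9e-05, limma). Fosl2, Jund and Maff were higher in clone 19 than in clone 1, by 0.16, 0.33 and 0.24 (adjusted p = 7.5e-04, 3.5e-04 and 9.8e-04, limma). Junb, Jdp2 and Atf3 were not called, with 95% intervals of the difference from -0.15 to 0.07, -0.03 to 0.13 and -0.04 to 0.21. Jun was not called (0.08, adjusted p = 0.057, limma). It was called with median-ratio scaling, quantile normalization or neighbouring genes subtracted (adjusted p = 0.0251, 0.0219 and 0.0141, limma), and without clone 19 replicate 1 or parental replicate 3 (adjusted p = 0.0305 and 0.0395, limma). Atf3 was called with neighbouring genes subtracted (0.26, adjusted p = 0.0111, limma).

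Because RPKM is a level per length, the subunits of a subfamily can be summed. The FOS subfamily summed to 43.3 ± 1.12 RPKM in clone 1 and 43.7 ± 0.532 RPKM in clone 19, against 63.1 ± 0.820 RPKM in parental cells (SD, n = 3 each). Fosl1 made up 40.0 ± 0.199% of that sum in clone 1 and 33.3 ± 0.764% in clone 19, against 55.1 ± 0.341% in parental cells. Fosl2 made up 57.9 ± 0.208% and 64.4 ± 0.557% in the clones, against 43.8 ± 0.385% in parental cells. The leading FOS transcript by RPKM was thus Fosl2 in the clones and Fosl1 in parental cells, while Fos and Fosb together stayed a small part of the sum everywhere. The FOS sums and shares rest on the Fosl1 level, which may include reads from the part it shares with Ccdc85b. The JUN subfamily summed to 106 ± 5.17 RPKM in clone 1 and 121 ± 0.810 RPKM in clone 19, against 142 ± 5.76 RPKM in parental cells. Junb contributed 22.7 ± 0.634% and 19.3 ± 0.976% in the clones, against 31.1 ± 0.608% in parental cells, and Jund 53.4 ± 1.32% and 58.6 ± 1.47% in the clones, against 48.5 ± 0.467% in parental cells. The ratio of the FOS to the JUN sum was 0.411 ± 0.0120 in clone 1 and 0.362 ± 0.00602 in clone 19, against 0.445 ± 0.0195 in parental cells. These sums are descriptions with no test.

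**Figure D3:**
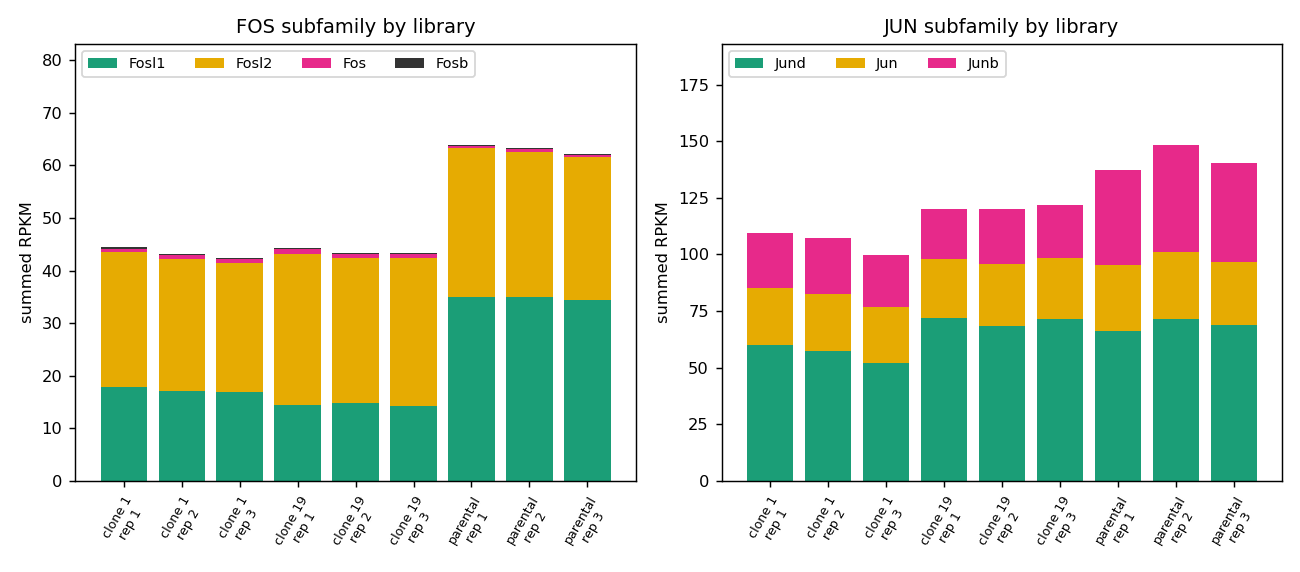
Summed RPKM (vertical axes, from 0) of the FOS subfamily (left) and the JUN subfamily (right) in each of the 9 libraries, with the parts of a bar standing for the subunits. The FOS sum is lower in all 6 clone libraries, mostly through Fosl1, and the JUN sum mostly through Junb, with Jund also lower in clone 1.

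The order of the levels changed accordingly. In clone 1 it ran Jund, Jun, Fosl2, Junb, Fosl1, Jdp2, Maff, Atf3, Fos and Fosb, in clone 19 Jund, Fosl2, Jun, Junb, Fosl1, Jdp2, Maff, Atf3, Fos and Fosb, and in parental cells Jund, Junb, Fosl1, Jun, Fosl2, Jdp2, Maff, Atf3, Fos and Fosb. Neighbours in the order whose libraries overlapped were Jun and Fosl2 as well as Fosl2 and Junb in clone 1, Fosl1 and Jdp2 as well as Jdp2 and Maff in clone 19, and Jun and Fosl2 in parental cells. Within groups the SD of the 8 tested subunits ran from 0.899% of the mean (Fosl1 in parental cells) to 8.76% (Atf3 in clone 19). Of the 10 subunits, 8 were highest in parental replicate 2 among parental libraries, and 7 were lowest in clone 1 replicate 3 among clone 1 libraries. These counts include the scarce Fos and Fosb. The matching share of all tested genes was not computed, so the counts cannot be read as a trait of AP-1 subunits. Averaged over all 9 libraries, of which 6 are from clones, Fosl2 and Jund had the highest RPKM of their subfamilies; in parental cells alone Fosl1 was above Fosl2. The tested genes with the profile closest to Fosl2 were Cul7, Tmem106b and Sgo1 (root mean square difference 0.024, 0.024 and 0.027 log2 units over 9 libraries). Those closest to Jund were Gsn, Yipf3 and Wdr5b (0.036, 0.039 and 0.048). These are the smallest differences over all tested genes, and no background was computed. Genes that change little lie close to Fosl2 by this measure, and shared regulation was not tested.

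**Figure D4:**
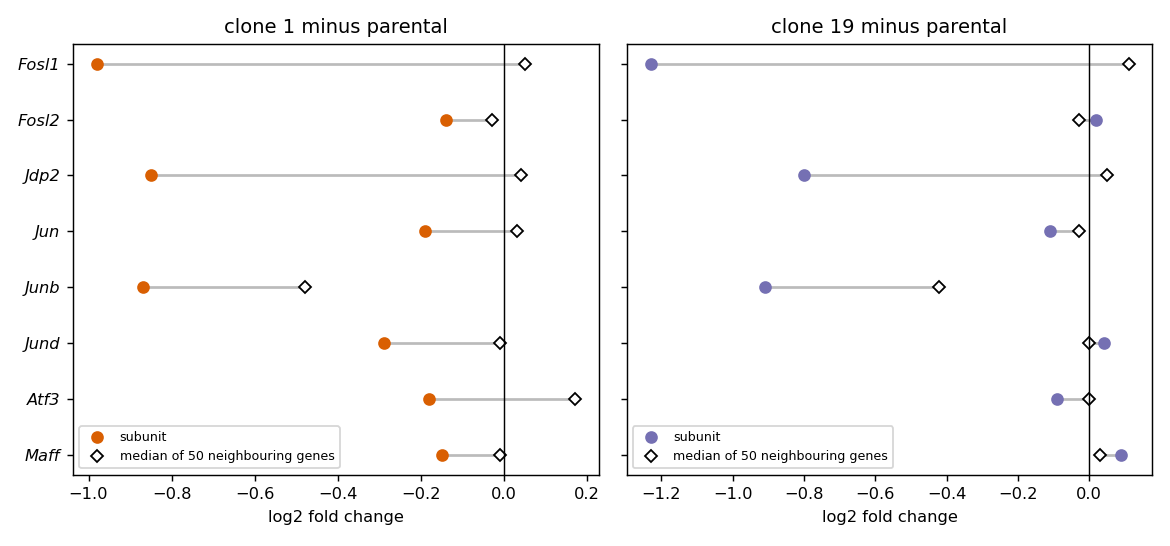
Log2 fold change (horizontal axes) of the 8 tested subunits (filled points) and the median over the 50 nearest tested genes in the gene order (open diamonds), for clone 1 (left) and clone 19 (right) against parental cells. The neighbours of Junb are at -0.48 and -0.42, those of Fosl1 and Jdp2 between 0.04 and 0.11.

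Genes upstream of AP-1 went both ways. The counts for this and the following lists stand beside 39.8% of all tested genes called higher and 32.6% lower in clone 1. In clone 19 these shares were 36.7% and 32.3%. Of 17 MAP kinases and MAP kinase kinases 14 were tested, of which clone 1 had 4 higher and 8 lower and clone 19 had 4 higher and 7 lower (median change on the log2 scale -0.11 in clone 1 and -0.14 in clone 19, beside 0.03 and 0.02 over all tested genes). Map2k2 (MEK2) fell to 36.1 ± 1.06 and 38.5 ± 1.02 RPKM in clone 1 and clone 19, against 49.1 ± 1.98 RPKM in parental cells (on the log2 scale -0.44 in clone 1 and -0.35 in clone 19), and Mapk14 (p38 alpha) fell by 0.36 in clone 1 and by 0.30 in clone 19. Map2k4, a kinase of JNK, rose by 0.31 in each clone, and Mapk11 (p38 beta) fell by 0.23 in clone 1 and by 0.26 in clone 19. Of 16 factors and kinases that act on the FOS and JUN promoters 14 were tested, with 3 higher and 7 lower in clone 1 and 3 higher and 8 lower in clone 19. Elk3, an ETS factor that binds with SRF and can repress Fos, had the largest change among them, 3.72 ± 0.245 and 3.15 ± 0.0846 RPKM in clone 1 and clone 19, against 13.2 ± 0.0370 RPKM in parental cells (-1.70 in clone 1 and -1.91 in clone 19, adjusted p = 2.3e-10 and 1.2e-10, limma). Mrtfa, a coactivator of SRF, fell by 0.39 in clone 1 and by 0.43 in clone 19, and the kinases Rps6ka2 (by 0.42 in clone 1 and by 0.52 in clone 19) and Rps6ka4 (by 0.32 in clone 1 and by 0.24 in clone 19) fell as well.

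Of 24 other basic leucine zipper genes 19 were tested, of which clone 1 had 3 higher and 10 lower and clone 19 had 2 higher and 10 lower (median -0.19 in clone 1 and -0.17 in clone 19). Batf2, a JUN partner induced by interferon, fell to 3.89 ± 0.385 and 4.24 ± 0.441 RPKM in clone 1 and clone 19, against 12.0 ± 0.696 RPKM in parental cells (-1.51 in clone 1 and -1.40 in clone 19, adjusted p = 2.2e-08 and 4.5e-08, limma). Bach2, a repressor that pairs with small MAF proteins, fell to 0.0842 ± 0.00885 and 0.137 ± 0.0242 RPKM in clone 1 and clone 19, against 1.08 ± 0.0623 RPKM in parental cells. Bach2, like Nr4a2 and Mmp3 of the lists described next and Kdr above, was under 1 RPKM in all clone libraries and passed the filter through the parental ones. Maf (c-MAF) rose to 14.1 ± 0.639 RPKM in clone 1 and 19.3 ± 0.456 RPKM in clone 19, against 10.3 ± 0.210 RPKM in parental cells (log2 fold changes 0.44 and 0.87). Nfe2l3, a cap-n-collar factor that pairs with small MAF proteins, rose to 16.6 ± 0.268 RPKM in clone 1 and 22.4 ± 0.431 RPKM in clone 19, against 9.70 ± 0.807 RPKM in parental cells (0.75 and 1.17). Of 12 genes that control the stability of AP-1 proteins 11 were tested, with 3 higher and 2 lower in clone 1 and 3 higher and 4 lower in clone 19. Fbxw7, which marks JUN for degradation, rose by 0.32 in clone 1 and by 0.19 in clone 19, and Usp28, a deubiquitinase that counters FBXW7, fell by 0.98 in clone 1 and by 0.85 in clone 19. Cul4a, the scaffold of a ubiquitin ligase for JUN, fell by 0.18 in clone 1 and by 0.17 in clone 19, and its adaptor Ddb1 rose by 0.10 in clone 1 and by 0.05 in clone 19.

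Other early response genes did not move together. Of 16 listed 13 were tested, with 3 higher and 7 lower in clone 1 and 3 higher and 6 lower in clone 19 (median -0.28 in clone 1 and -0.02 in clone 19). Ier2 fell to 8.06 ± 0.463 and 9.18 ± 0.262 RPKM in clone 1 and clone 19, against 15.2 ± 1.23 RPKM in parental cells (-0.88 in clone 1 and -0.70 in clone 19), and Dusp1, a phosphatase of MAP kinases, fell by 0.77 in clone 1 and by 0.41 in clone 19. Nr4a2 fell by 0.81 in clone 1 and by 0.55 in clone 19, and Btg2, an antiproliferative gene, rose by 0.70 in clone 1 and by 0.97 in clone 19. Of 9 heat shock and handling genes 7 were tested; clone 1 had 2 higher and 2 lower, and clone 19 had 0 higher and 1 lower. Their sum was 239 to 248 and 224 to 230 RPKM in clone 1 and clone 19, against 232 to 241 RPKM in parental cells. Hsph1 fell by 0.33 in clone 1 and by 0.28 in clone 19, and Hspd1 (0.24 in clone 1 and 0.01 in clone 19), Hspe1 (0.20 in clone 1 and -0.02 in clone 19) and Hspb1 (-0.17 in clone 1 and 0.14 in clone 19) were not called in the same direction in both clones.

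Genes known as AP-1 targets went in both directions. Of 30 listed 26 were tested, with 9 higher and 11 lower in clone 1 and 11 higher and 14 lower in clone 19 (median -0.07 in clone 1 and -0.11 in clone 19). Mmp3 (stromelysin) fell to 0.719 ± 0.158 and 0.552 ± 0.128 RPKM in clone 1 and clone 19, against 4.64 ± 0.0804 RPKM in parental cells (-2.08 in clone 1 and -2.30 in clone 19). Mmp3 was under 1 RPKM in all clone libraries and passed the filter only through the parental ones, where it was high. Mmp13 (collagenase) rose to 14.8 ± 0.857 and 12.5 ± 0.700 RPKM in clone 1 and clone 19, against 4.64 ± 0.440 RPKM in parental cells (1.58 in clone 1 and 1.34 in clone 19). Hmga2, a chromatin protein of growing cells, fell to 14.9 ± 0.271 and 10.2 ± 0.550 RPKM in clone 1 and clone 19, against 30.3 ± 0.459 RPKM in parental cells (-1.0 in clone 1 and -1.52 in clone 19). Itga5, a chain of the fibronectin receptor, fell to 28.9 ± 0.472 and 25.1 ± 0.645 RPKM in clone 1 and clone 19, against 56.0 ± 1.25 RPKM in parental cells (-0.94 in clone 1 and -1.14 in clone 19). Hmga2 and Itga5 were lower in clone 19 than in clone 1, by log2 differences of -0.52 and -0.20 (adjusted p = 3.2e-06 and 1.9e-04, limma). Mmp13 was lower as well (-0.23, adjusted p = 0.0155, limma), and Mmp3 was not called (-0.21, adjusted p = 0.132, limma). Of the 26 tested targets, 10 were called higher and 10 lower in this comparison (median -0.03). Among all tested genes, 18.5% were called higher and 24.5% lower.

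**Figure D5:**
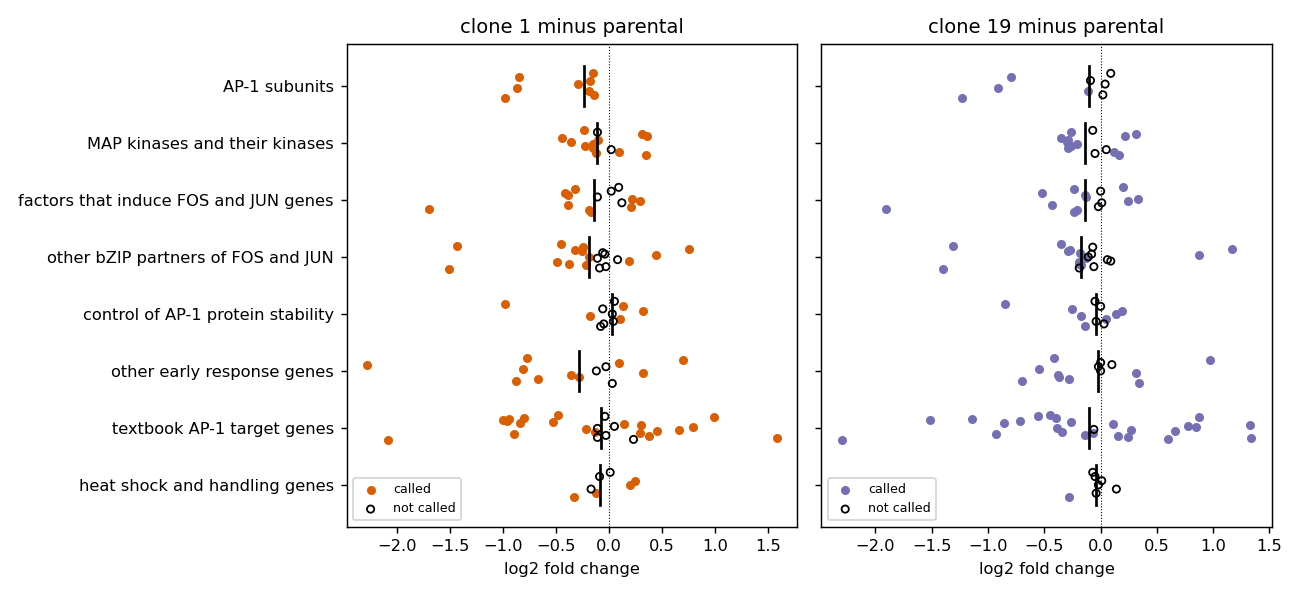
Log2 fold change (horizontal axes) of each tested gene in 8 lists, for clone 1 (left) and clone 19 (right) against parental cells; filled points were called by limma, open ones were not, and the black line is the median of the list. Medians of the lists lie between -0.28 and 0.03, and the largest changes are in lists other than the AP-1 subunits.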

How the data were processed

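RNA of 9 YAMC libraries was prepared with the RNA-easy kit and a TruSeq kit, per the labels' protocols. The deposited table holds RPKM values that the authors computed. The submitters' processing notes name GSNAP, DESeq and the build NCBIM37, without versions or roles; annotation, counting rule and strand are not stated in any source used here. RefSeq (GRCm38) gave symbols for 24998 of 28059 IDs and the gene order.

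Depth was estimated from steps between low values with GENCODE M21 exon lengths. These estimates are not read totals, so no count test was run. limma 3.58.1 (R 4.3.3) was applied to log2(RPKM + 0.5), using a mean-variance trend, for 12568 genes reaching 1 RPKM in 3 or more libraries. The 3 groups shared 1 fit, with Benjamini-Hochberg adjustment per contrast. The script was tested on simulated data. No label says that replicates were separate cultures, so the p-values reflect only the spread among these libraries, which may be technical. The subunits and the 14 gene lists were chosen with earlier results of these data known. All 10 subunits and Cdk8 are named, and Cdk19 was added with its values known. Of each other list, up to 4 genes are named by rule. Genes called the same way in both clones come first, ranked by the smaller of their 2 changes. Those with the largest change in 1 clone come next. Alternatives were pseudocounts of 0.1 and 1, no filter or 3 RPKM, median-ratio and quantile scaling, no trend, array weights, a replicate block, fits of only the groups compared, subtraction of the median of 50 neighbouring genes, and leaving out each library.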

Additional observations from a re-analysis of the deposited data

Results flagged for a closer look

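The effects of the 2 clones differed for 4 subunits in the test of clone 19 minus clone 1 (limma, adjusted over all tested genes). Fosl1 had a log2 difference of -0.25 (adjusted p = 7.9e-05, limma), with all 3 clone 19 libraries below all 3 clone 1 libraries. Fosl2 differed by 0.16 (adjusted p = 7.5e-04, limma), Jund by 0.33 (adjusted p = 3.5e-04, limma) and Maff by 0.24 (adjusted p = 9.8e-04, limma), each higher in all 3 clone 19 libraries than in all 3 clone 1 libraries. In this comparison 43% of all tested genes were called, 24.5% lower and 18.5% higher, and 51.5% had libraries that did not overlap.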

How the results depend on the processing

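Fosl1, Junb and Jdp2 were called lower in both clones under all 20 alternatives, with log2 fold changes from -1.03 to -0.97 and -1.34 to -1.21 for Fosl1, -0.92 to -0.39 and -0.95 to -0.48 for Junb, and -0.89 to -0.83 and -0.85 to -0.78 for Jdp2 in clone 1 and clone 19; the values of Junb nearest to 0 came from subtracting neighbouring genes. With quantile normalization the uncalled differences of Fosl2 and Jund in clone 19 turned to -0.01 and -0.04. With median-ratio scaling the log2 ratio of the FOS sum was -0.58 in clone 1 and -0.55 in clone 19, against -0.54 and -0.53 as deposited. This scaling multiplies all genes of a library by 1 factor. It moved the median log2 fold change over all tested genes from 0.03 in clone 1 and 0.02 in clone 19 to 0 in both. No strong pairing of libraries by replicate number was seen. Deviations of libraries with the same number correlated at -0.04 to 0.12 over genes, against -0.14 to 0.08 for other numbers. With 3 libraries per group, these values cannot exclude a weak pairing. A replicate block left 8, 4 and 4 subunits called for clone 1, clone 19 and the clone difference, as without it. Depth limits Fos and Fosb, and the filter at 3 RPKM gave no value for either.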

Other observations

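Some genes from the lists that did not come under the rule for named genes, and were chosen after their values were seen, separated the clones. Ccn2 (CTGF, a matricellular protein and target of YAP and SRF) had 1.90, 1.75 and 2.04 RPKM in the clone 1 libraries and, in the clone 19 libraries, 13.1, 10.5 and 12.3 RPKM, against 11.7, 11.3 and 10.3 RPKM in parental cells. Its log2 fold change was -2.28 in clone 1 (adjusted p = 1.0e-09, limma) and 0.10 in clone 19 (adjusted p = 0.279, limma), and clone 19 was higher than clone 1 by 2.38 (adjusted p = 6.1e-08, limma). The metallothionein genes Mt1 and Mt2, which bind zinc and copper, were higher in clone 19 than in clone 1, by 0.73 and 1.03 (adjusted p = 2.5e-05 and 2.9e-06, limma). Mt2 had 32.1, 29.8 and 32.3 RPKM in the clone 19 libraries and 16.5, 15.3 and 13.7 RPKM in those of clone 1, against 11.1, 13.3 and 12.3 RPKM in parental cells.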
